A study of Mus musculus with 2 samples.

Results

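IgA plasma cells were 697 of the 25652 cells that passed the quality limits in 2 single-cell RNA libraries of mouse optic nerve with *Nf1* optic glioma. They were chosen by their own counts of unique molecular identifiers (UMIs, each standing for 1 captured RNA molecule). A member had at least 10 UMIs of *Jchain*, at least 2 of *Mzb1* and at least 20 of *Igha*, with *Igha* above each of *Ighm*, *Ighg1*, *Ighg2b*, *Ighg2c* and *Ighg3*. Both libraries, named C-ON and FMC_new, carry the genotype label NF1-OPG, and each suspension came from 10 pooled mice aged 12 weeks. In this model 1 *Nf1* copy is mutant in every cell and the other is deleted by Cre under a GFAP promoter, so the plasma cells and all other cells outside the GFAP lineage keep 1 working copy. The labels give the tissue of both libraries as optic nerve, and the protocol also describes dural meninges collected separately. By marker genes, FMC_new also held 796 pituitary endocrine cells, against 20 in C-ON. The title of C-ON holds the word control and that of FMC_new does not, but no difference in treatment or genotype is given, so the libraries were treated as 2 samples of 1 group. The comparison group was the 841 plasma cells of the same libraries chosen by the same limits with an IgM or IgG heavy chain above *Igha*.

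IgA is the antibody class that is secreted at mucosal surfaces, where it is exported as a dimer joined by the J chain. Plasma cells are the end stage of the B cell lineage. They lose most of the receptors of a B cell, expand the endoplasmic reticulum and devote much of their RNA to 1 heavy and 1 light chain. IgA plasma cells are abundant in the gut wall and are also known from the dural meninges. Each cell joins 1 heavy and 1 light variable (V) gene, so the V genes it transcribes are a partial signature of its lineage.

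The V genes used by many of the IgA plasma cells are shown by the ends of their germline transcripts. The pair *Ighv8-12* and *Igkv8-21* was held by 28 cells in C-ON and 40 in FMC_new, and *Ighv1-26* with *Igkv3-2* was the most frequent pair in FMC_new, in 67 cells. The last 90 bases of each GENCODE M21 transcript are given 5′ to 3′, and the capitals mark the last match to any of 4 motifs on the coding strand. With a tyrosine codon the motif was TACTGT or its variant with the other cysteine codon, TACTGC, and with a phenylalanine codon it was TTCTGT or likewise TTCTGC. The motif ends with the cysteine codon that precedes the third complementarity-determining region. A match was present in the same window of 272 of 301 V gene transcripts of that annotation (90.4%).
Ighv8-12: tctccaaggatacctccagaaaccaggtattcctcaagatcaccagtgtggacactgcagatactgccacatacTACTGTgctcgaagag
Igkv8-21: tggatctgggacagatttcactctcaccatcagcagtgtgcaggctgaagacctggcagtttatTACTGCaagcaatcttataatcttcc
Ighv1-26: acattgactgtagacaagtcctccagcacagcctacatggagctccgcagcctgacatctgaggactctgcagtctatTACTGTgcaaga
Igkv3-2: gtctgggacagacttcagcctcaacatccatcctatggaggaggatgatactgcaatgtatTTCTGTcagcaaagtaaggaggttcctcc
In GRCm38, *Ighv8-12* lies on the minus strand at chr12:115647945-115648387 and *Ighv1-26* at chr12:114788372-114788805. *Igha*, the constant gene that defines the cells, lies on the same strand at chr12:113254830-113260236. The light chain gene *Igkv8-21* lies on the minus strand at chr6:70314895-70315472 and *Igkv3-2* on the plus strand at chr6:70698449-70699067. The counts cover whole genes, and no junction sequences were read, so a shared pair of V genes is not a shared clone.

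In C-ON, 206 of 8834 cells were IgA plasma cells (2.33%, exact 95% interval 2.03% to 2.67%). In FMC_new they were 491 of 16818 (2.92%, 2.67% to 3.19%). The IgA share of all plasma cells was 52.6% (47.5% to 57.6%) in C-ON and 42.8% (40.0% to 45.8%) in FMC_new, and the rest were nearly all IgG. Of 186 other plasma cells in C-ON, 130 led with *Ighg2c*, 38 with *Ighg2b*, 17 with *Ighg1* and 1 with *Ighg3*. Of 655 in FMC_new, 304 led with *Ighg2b*, 290 with *Ighg2c*, 60 with *Ighg1* and 1 with *Ighm*. The intervals cover counting error only, and a difference between the libraries was not tested, since each is a single pool of mice. The libraries share 296 barcodes, of which 188 passed the limits and 1 was an IgA plasma cell.

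The counts that chose the members are given as a description. *Igha* ranged from 23 UMIs to 885 per cell in C-ON, with a median of 262.5, and from 20 UMIs to 1071 in FMC_new, with a median of 218. At the edge of the rule, 1 member of C-ON and 21 of FMC_new had 20 to 29 *Igha* UMIs, while 7 and 36 further cells with 10 to 19 stayed outside. The limit that removed the most was the upper limit on UMIs and genes, which kept out 35 barcodes in C-ON and 204 in FMC_new that otherwise met the rule. Members held 93.4% of all *Igha* UMIs of the kept cells in C-ON and 90.9% in FMC_new. *Jchain* took 6.25% of the UMIs of members in C-ON and 5.64% in FMC_new, with medians of 628 and 585 UMIs per cell. Free RNA of these genes reached other cells, since *Igha* was found in 9.33% of T cells in C-ON and 25.8% in FMC_new, and *Jchain* in 45.6% and 96.9%.

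The label was checked against 5 plasma cell markers that the rule did not use. Levels are the UMIs of a gene per 1000000 UMIs outside the immunoglobulin genes (CPM), summed over the cells of a library. *Xbp1*, the transcription factor that drives the secretory programme, stood at 1877 CPM in C-ON and 1989 in FMC_new, against 79.2 and 92.3 CPM in T cells. *Prdm1*, the repressor of B cell genes, stood at 249.7 and 278.9 CPM, and *Irf4*, which acts beside it, at 311.6 and 447.9 CPM. *Sdc1*, which encodes the plasma cell surface protein CD138, stood at 319.6 and 307.7 CPM, against 0.878 and 2.50 CPM in T cells. *Tnfrsf17* stood at 114.8 and 180.0 CPM, against 0.219 and 0.417 in T cells. All 5 were thus found in both libraries, and nothing in them went against the label. *Prdm1* and *Irf4* are given with no T cell level beside them, so for these the check covers presence only.

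IgA plasma cells were large in RNA and gave most of it to antibody. Their median was 11186 UMIs and 1818 genes in C-ON and 12547 UMIs and 1789 genes in FMC_new, where T cells had medians of 3694 and 3355 UMIs. Immunoglobulin genes took 56.1% of the summed UMIs of the members in C-ON and 61.2% in FMC_new. Most of this was variable region, with light V genes at 32.4% and 35.3% of all UMIs and heavy V genes at 12.8% and 17.0%. The heavy constant gene *Igha* itself took 2.51% and 1.94%. The libraries were made with a 5′ kit, which reads transcripts from the V gene end. The immunoglobulin share varied among members: 20 of 206 in C-ON and 47 of 491 in FMC_new were under 30%.

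**Figure D1:**
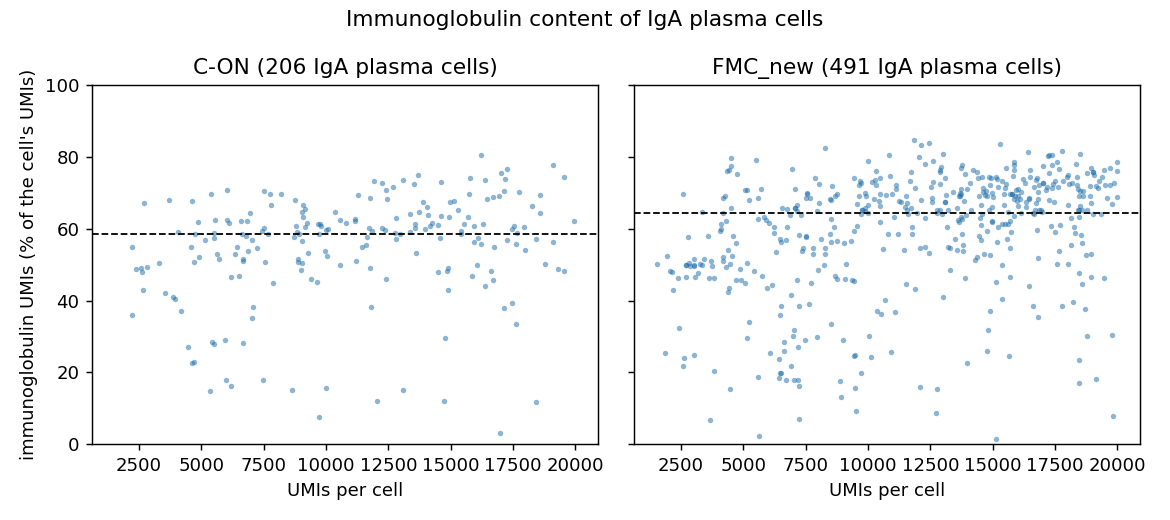
Immunoglobulin UMIs as a percentage of each cell's UMIs (vertical axis) against UMIs per cell (horizontal axis) for the 206 IgA plasma cells of C-ON and the 491 of FMC_new; each point is 1 cell and the dashed line is the library's median over cells. The medians are 58.5% and 64.2%, and 20 and 47 cells lie under 30%.

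Nearly all members were kappa cells. *Igkc*, the kappa constant gene, exceeded the summed lambda constant genes *Iglc1*, *Iglc2* and *Iglc3* in 204 of 206 cells in C-ON (99.0%, 96.5% to 99.9%) and in 466 of 491 in FMC_new (94.9%, 92.6% to 96.7%). Lambda exceeded kappa in 1 cell of C-ON and 23 of FMC_new, where the other plasma cells held 6 lambda cells among 655. *Iglv1*, a lambda V gene, stood at 10597 CPM of all UMIs in the IgA plasma cells of FMC_new, against 1141 in the other plasma cells of that library. In C-ON these values were 700.8 and 1309, so the order was the opposite there. Lambda made up between 20% and 80% of the constant light chain UMIs in 42 cells of C-ON and 156 of FMC_new. Among the other plasma cells this held for 20 of 186 and 116 of 655. These constant genes took only 1.98% and 1.19% of the UMIs of members. By V gene the cells were less mixed. The leading light V gene held a median of 99.1% and 98.6% of a cell's light V UMIs, and at least 80% in 185 and 461 members. Whether the mixed cells transcribed both kinds of light chain was not tested.

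V gene use was uneven and differed between the libraries. A V gene was assigned to a cell when it had at least 3 UMIs and more than any other. In C-ON a heavy V gene was assigned in 154 of 206 cells and a light V gene in all 206, and in FMC_new each was assigned in 490 of 491. The leading heavy V gene held a median of 73.7% of a cell's heavy V UMIs in C-ON and 99.3% in FMC_new, so heavy assignments in C-ON are less certain. Near-identical V genes may also share reads.

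In C-ON, 21 heavy V genes were used, led by *Ighv8-12* in 28 cells, *Ighv5-6* in 22, *Ighv5-4* in 20, *Ighv1-69* in 17 and *Ighv1-81* in 14. The light chains were led by *Igkv8-19* in 59 cells, *Igkv4-53* in 42, *Igkv10-96* in 33, *Igkv8-21* in 28 and *Igkv6-15* in 14. In FMC_new, 48 heavy V genes were used, led by *Ighv1-26* in 71 cells, *Ighv1-64* in 69, *Ighv1-81* in 54, *Ighv8-12* in 40 and *Ighv2-6* in 26. Its light chains were led by *Igkv3-2* in 68 cells, *Igkv6-17* in 66, *Igkv1-110* in 51, *Igkv8-21* in 48 and *Igkv5-43* in 29. Only *Ighv8-12*, *Ighv1-81* and *Igkv8-21* were among the 5 leading genes of their chain in both libraries. In C-ON, *Ighv1-81* was tied with *Ighv1-9* at 14 cells and was placed first by name.

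Pairs were repeated across cells. The 154 members of C-ON with both chains assigned held 31 pairs, and the 13 pairs found in at least 3 cells covered 83.8% of them. These pairs leave out cells with no heavy V gene, which were not spread evenly over the light chains. *Igkv8-19* led in 59 cells of C-ON, but its only pair in at least 3 cells was with *Ighv1-21*, in 3 cells. The pair values of C-ON thus do not cover most of its largest light chain group. The 489 such members of FMC_new held 113 pairs, of which 33 were in at least 3 cells and covered 80.4%. The libraries shared 8 pairs, which is 25.8% of the pairs of C-ON and 7.08% of those of FMC_new. With assignments limited to cells where each leading V gene held at least 80% of its chain's V UMIs, 15 and 83 pairs remained, and 2 were shared, *Ighv8-12* with *Igkv8-21* and *Ighv1-9* with *Igkv10-96*. Under this limit 33 of the 83 pairs of FMC_new (39.8%) were also held by IgM or IgG plasma cells of that library, where they made up 47.8% of 69 pairs, and 265 of the 346 IgA plasma cells (76.6%) carried such a pair. In C-ON, 3 of 15 IgA pairs were so shared, and 24 of the 58 IgA plasma cells (41.4%) carried one.

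The main comparison asked how IgA plasma cells differed from the IgM and IgG plasma cells beside them, outside the immunoglobulin genes. IgA plasma cells had more RNA of the chemokine receptor *Ccr10*, of the survival receptor *Tnfrsf17*, of *Btla* and of *Txndc5*, and less of *Ly6c2*, of *Cxcr3* and of the class II presentation genes *Cd74*, *H2-Aa*, *H2-Ab1* and *H2-Eb1*. By edgeR, 10284 genes were tested on UMIs summed per library and cell type. Of these, 112 were higher in IgA plasma cells (1.09%) and 123 lower (1.2%), or 2.29% in either direction. Among the 235 called, 229 had the same direction in each library alone. The calls come from these same sums, so this agreement is largely set by the calling and is no added support. The fit rests on 4 sums and 1 residual degree of freedom, with the spread borrowed across genes. No gene passed without the library as a block (322 at an unadjusted p under 0.05, against 1163 with it) or without the upper limit on UMIs and genes (669 at an unadjusted p under 0.05), and 48 passed with DESeq2. With the immunoglobulin genes kept, 78 genes passed, and 41 of the 56 named genes that could then be tested were no longer called, among them *Ly6c2*, *H2-Aa*, *Cd74*, *Crip1* and *Mzb1*. The log2 differences of the genes named here kept their sign without the block and without the upper limit, with the exception of *Pomc* in the latter. The libraries come from separate pools of mice, and the block takes out differences in level between them. The p-values thus measure only how far the difference between the cell groups varies between these pools, with the borrowed spread.

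Among homing receptors, *Ccr10* was higher in IgA plasma cells in both libraries. This receptor for CCL27 and CCL28 guides IgA plasma cells to epithelial surfaces. In C-ON it stood at 197.7 CPM (exact Poisson 95% interval 171.1 to 227.3) in the IgA cells and at 42.6 (30.6 to 57.8) in the others. In FMC_new it stood at 280.2 CPM (258.8 to 303.0) and 78.0 (67.9 to 89.2). The intervals did not overlap in either library, and the log2 fold change was 1.96 ± 0.15 (SE, edgeR adjusted p = 5.27e-07). After each cell was thinned to 1000 UMIs outside the immunoglobulin genes, *Ccr10* was found in 15.1% and 24.4% of IgA cells, in 4.92% and 5.50% of the others and in 0% and 0.12% of T cells. The gene lies at chr11:101172997-101175443 on the minus strand.

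*Cxcr3*, the receptor for the interferon-induced chemokines CXCL9 and CXCL10, was lower in IgA plasma cells. It stood at 112.8 CPM against 203.6 in C-ON and at 116.2 against 353.0 in FMC_new, with a log2 fold change of −1.31 ± 0.16 (adjusted p = 1.39e-04). At equal depth it was found in 10.2% and 10.9% of the cells of C-ON, a difference that is not detectable by this share, and in 8.01% and 24.4% in FMC_new. *Cxcr4*, the receptor for CXCL12 that holds plasma cells in bone marrow, stood at 61.9 against 115.3 CPM in C-ON and at 69.2 against 113.9 in FMC_new (log2 fold change −0.80 ± 0.15, adjusted p = 0.00587). Of the 24 genes of homing, retention and adhesion, 19 were tested, with a median log2 fold change of −0.12 beside −0.00031 over all genes. In this list 1 was higher, 2 were lower and 16 did not pass, beside 1.09% higher and 1.2% lower over all genes. The gut-homing receptor *Ccr9* was near the background at 6.99 and 7.09 CPM in members, against 15.6 in the T cells of FMC_new. The integrin genes *Itga4* and *Itgb7*, whose products form the receptor for the gut vessel protein MAdCAM-1, stood at 419.4 and 77.9 CPM in C-ON and at 560.9 and 93.6 in FMC_new, and neither passed the test between the plasma cell groups.

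**Figure D2:**
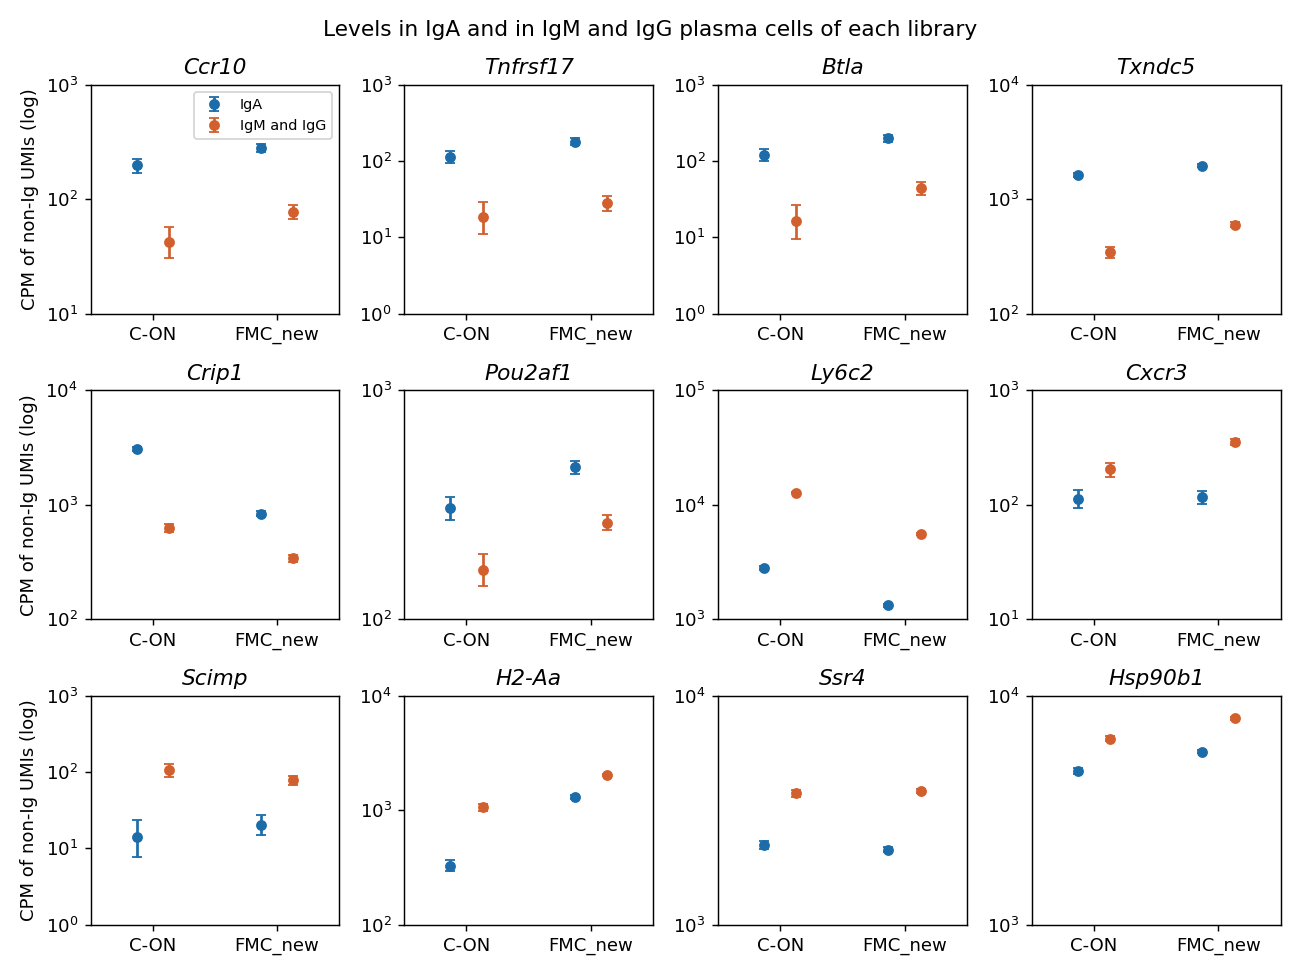
CPM of non-immunoglobulin UMIs (log axis) of 12 genes in IgA plasma cells (blue) and IgM and IgG plasma cells (orange) of C-ON and FMC_new; points are the sums over the cells of a library and bars are exact Poisson 95% intervals. *Ccr10*, *Tnfrsf17*, *Btla*, *Txndc5*, *Crip1* and *Pou2af1* are higher in the IgA cells of both libraries and the other 6 genes are lower.

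Receptors of survival and signalling made up the next group. *Tnfrsf17*, which encodes BCMA, the plasma cell receptor for the survival factors APRIL and BAFF, stood at 114.8 CPM (94.8 to 137.8) in IgA cells against 18.7 (11.1 to 29.6) in C-ON, and at 180.0 (162.9 to 198.4) against 28.2 (22.2 to 35.2) in FMC_new. Its log2 fold change was 2.64 ± 0.17 (adjusted p = 9.35e-08). *Btla*, an inhibitory receptor of lymphocytes, stood at 120.8 against 16.6 CPM in C-ON and at 199.1 against 43.9 in FMC_new (log2 fold change 2.34 ± 0.17, adjusted p = 5.27e-07). The 18 genes of survival and apoptosis, all tested, had a median log2 fold change of 0.14. Of these, 4 were higher and none was lower, beside 1.09% and 1.2% of all genes tested. The other 3 were *Cd28*, a receptor that also sustains plasma cells, at 1.11 ± 0.16, *Cd93*, at 1.02 ± 0.21, and *Bcl2*, which blocks apoptosis, at 0.67 ± 0.14. *Tnfrsf13b*, which encodes the related receptor TACI, stood at 336.5 against 306.5 CPM in C-ON and 405.3 against 275.3 in FMC_new and did not pass.

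Genes of the secretory programme differed in both directions. *Txndc5*, a disulfide isomerase of the endoplasmic reticulum, stood at 1634 CPM in IgA cells against 343.9 in C-ON and at 1971 against 600.5 in FMC_new (log2 fold change 1.95 ± 0.12, adjusted p = 9.35e-08). The other folding genes went the other way or did not pass. Of 28 genes of folding, quality control and the unfolded protein response, 26 were tested, with a median log2 fold change of −0.25. Among them 1 was higher and 5 were lower, beside 1.09% and 1.2% of all genes tested. *Hsp90b1*, the chaperone GRP94, stood at 4702 against 6487 CPM in C-ON and 5702 against 7977 in FMC_new (−0.49 ± 0.09). *Fkbp11* was lower at −0.73 ± 0.12, *Pdia4* at −0.52 ± 0.10, *Creld2* at −0.47 ± 0.11 and *Pdia6* at −0.42 ± 0.10.

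Of the 22 genes of protein export, all tested, 2 were lower, beside 1.2% of all genes, with a median log2 fold change of −0.06. *Ssr4*, a subunit of the translocon-associated complex, stood at 2234 CPM in IgA cells against 3745 in C-ON and at 2129 against 3850 in FMC_new (log2 fold change −0.81 ± 0.09). *Rrbp1*, a ribosome-binding protein of the endoplasmic reticulum, was lower at −0.47 ± 0.11. Among the 10 regulators of the secretory programme, 2 were higher, *Tnfrsf17* and *Pou2af1*, and 1 was lower, *Mzb1*, at −0.49 ± 0.09, which belongs to the rule. These counts stand beside 1.09% higher and 1.2% lower over all genes tested. *Pou2af1*, a coactivator of antibody gene transcription, stood at 305.6 against 164.2 CPM in C-ON and 460.7 against 264.4 in FMC_new (log2 fold change 0.83 ± 0.12). The log2 fold changes of *Xbp1*, *Irf4*, *Prdm1* and *Sdc1* did not pass the test.

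**Figure D3:**
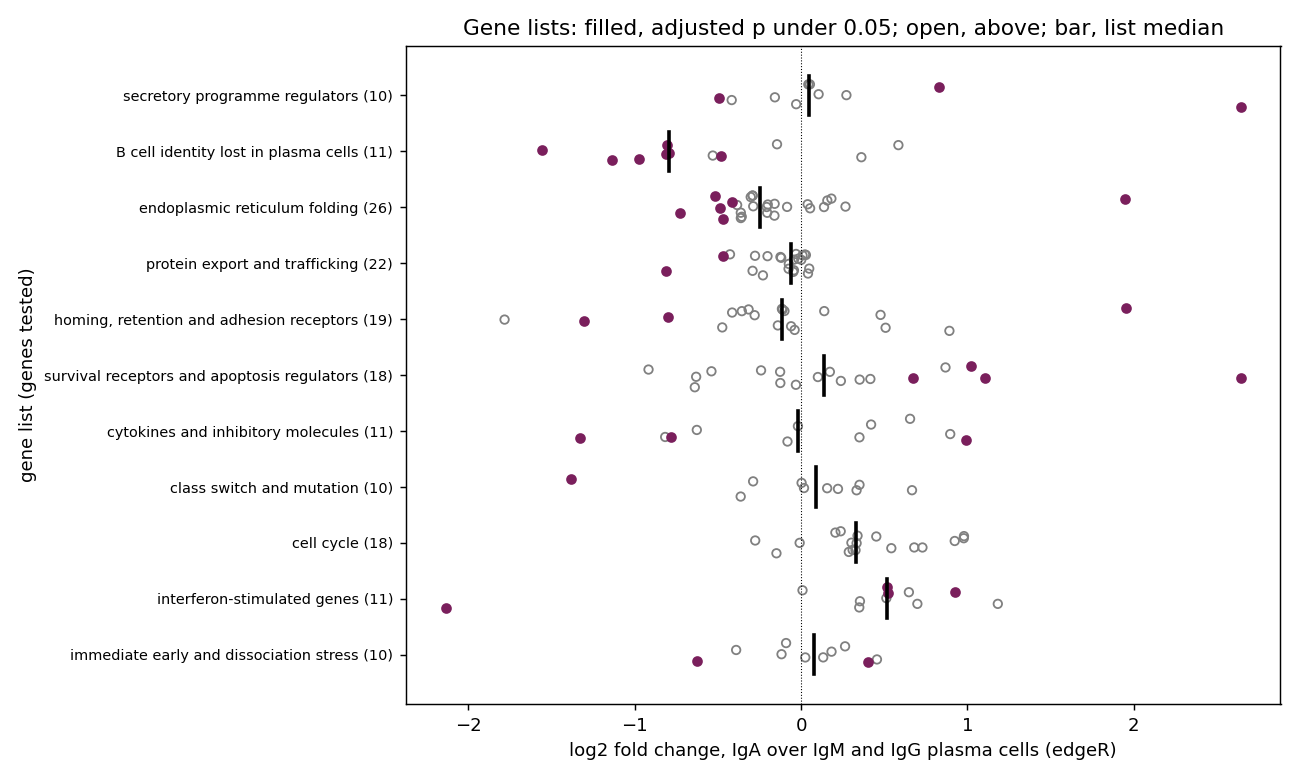
Log2 fold change of IgA over IgM and IgG plasma cells by edgeR (horizontal axis) for the tested genes of 11 lists (vertical axis, with the number tested); filled points have an adjusted p under 0.05, open points do not, and bars are the list medians. The list of B cell identity has the lowest median, −0.79, with 7 of 11 genes lower, beside 1.2% of all genes tested.

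Genes of B cell identity were lower in IgA plasma cells. Of 18 such genes, 11 were tested, 7 were lower and none was higher, beside 1.2% and 1.09% of all genes tested. The list median was a log2 fold change of −0.79. *H2-Aa*, a class II antigen presentation gene, stood at 327.5 CPM against 1060 in C-ON and at 1301 against 2039 in FMC_new (log2 fold change −1.14 ± 0.17, adjusted p = 8.75e-04). In T cells, which give the free RNA level, it stood at 549.8 and 1168 CPM, above or close to the level in IgA plasma cells. *H2-Eb1* and *H2-Ab1*, its partners, were lower at −0.98 ± 0.12 and −0.81 ± 0.12, and *Cd74*, the class II chaperone, at −0.79 ± 0.10. *Ms4a1*, which encodes CD20, was lower at −1.56 ± 0.17, *Ebf1*, a B lineage transcription factor, at −0.81 ± 0.15, and *Cd79b*, a B cell receptor subunit, at −0.48 ± 0.11. *Cd79a* was high in both groups, at 2327 and 2315 CPM in C-ON and 2582 and 3102 in FMC_new, and did not pass. Macrophages also carry class II genes, and at least 2 macrophage markers were found in 2.43% of IgA and 8.06% of the other plasma cells in C-ON and in 19.3% and 16.5% in FMC_new. With cells that held at least 2 markers of another class left out, all 7 genes were also lower, which leaves free RNA in the remaining cells, and its part in these values was not tested.

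B cells were too few for a test, with 13 in C-ON and 96 in FMC_new, and are set beside the members as values. Of 12 genes of B cell identity that were not used to choose the B cells, 9 were lower in the IgA plasma cells of both libraries. *Ebf1* stood at 62.9 CPM against 1089 in the B cells of C-ON and at 132.6 against 1242 in FMC_new. *Bach2*, which holds back plasma cell differentiation, stood at 49.9 against 272.1 and at 53.7 against 490.8 CPM. *Ciita*, the activator of class II genes, stood at 0.999 against 49.5 and at 9.31 against 126.1 CPM. The other 3 genes, *Cd22*, *Cr2* and *Fcer2a*, had no UMI in the B cells of C-ON.

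*Ly6c2*, a surface protein of the Ly6 family, had the smallest p of all genes. It stood at 2820 CPM in IgA plasma cells against 12783 in C-ON and at 1320 against 5532 in FMC_new, with a log2 fold change of −2.14 ± 0.09 (adjusted p = 9.03e-10). With the immunoglobulin genes kept, its log2 fold change was the same, −2.14, and it did not pass (adjusted p = 0.0613). Single IgA cells ranged up to 177 UMIs in C-ON and 179 in FMC_new. In T cells it stood at 518.5 and 420.9 CPM. At equal depth it was found in 55.6% and 39.0% of the IgA cells and in 87.4% and 70.4% of the others. *Ly6c2* was counted among 12 interferon-stimulated genes. Of 11 tested, *Ly6c2* alone was lower, while *Isg15* (0.92 ± 0.16), *Ly6e* (0.52 ± 0.10) and *Bst2* (0.52 ± 0.13) were higher, with a median log2 fold change of 0.52. Over all genes tested, 1.2% were lower and 1.09% higher. *Bst2*, which encodes tetherin, stood at 1189 against 661.8 CPM in C-ON and 827.9 against 701.9 in FMC_new.

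The largest differences by fold were mostly in genes of few UMIs. *Rnase2a*, which encodes a secreted ribonuclease, had 19 UMIs in the IgA cells of C-ON and 24 in those of FMC_new, and none in the other plasma cells of either library. Against a floor of 3 counts per library it was at least 6.09-fold higher in C-ON and at least 9.69-fold higher in FMC_new. *Bmp6*, a secreted growth factor, had 11 UMIs against 0 in C-ON and 48 against 8 in FMC_new. *Ifitm1*, an interferon-induced membrane protein, had 26 against 1 and 44 against 12. The other genes among the 10 largest increases were *4833407H14Rik*, *Il1rapl2* and *Gm7247*, with log2 fold changes of 2.63 ± 0.53, 2.26 ± 0.38 and 1.99 ± 0.45, of which *Il1rapl2* and *Gm7247* rest on 3 and 4 UMIs in C-ON. *Crip1*, a LIM domain protein named after its values were seen, stood at 3073 against 628.6 CPM in C-ON and 837.6 against 340.2 in FMC_new (log2 fold change 1.78 ± 0.16).

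*Il4i1*, which encodes an amino acid oxidase, had 6 UMIs in the IgM and IgG cells of C-ON and 17 in those of FMC_new and none in IgA cells, which makes it at least 2.08-fold lower in C-ON and at least 4.68-fold lower in FMC_new. *Scimp*, an adaptor of antigen-presenting cells, had 14 UMIs in IgA cells against 102 in C-ON and 46 against 215 in FMC_new (log2 fold change −2.29 ± 0.23). *Cyp4f18* had 26 UMIs against 124 and 54 against 224. *Bank1*, a B cell scaffold, was lower at −1.86 ± 0.30 and *Pld4* at −1.86 ± 0.21. The remaining large decreases were *Lipc*, *Cox4i2*, *Timd2* and *Ccn3*, between −3.07 and −2.36 on the log2 scale, with 2 or fewer UMIs each in the IgA cells of C-ON.

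Among 16 cytokines and inhibitory molecules, 11 were tested, with a median log2 fold change of −0.02. There 1 was higher and 2 were lower, beside 1.09% and 1.2% of all genes tested. *Il10* stood at 11.0 and 8.87 CPM in the IgA cells, below the 20.6 and 36.2 CPM of T cells. *Ebi3*, a subunit of IL-27 and IL-35, was lower at −1.33 ± 0.32 and *Cd274*, which encodes PD-L1, at −0.78 ± 0.14. *Ccl5* was the higher gene, at 0.99 ± 0.15, and its sign did not hold, as it came to −0.08 with cells that held at least 2 markers of another class left out. T cells carried *Ccl5* at 3752 and 3635 CPM. At least 2 of the 6 T cell markers were found in 17.0% of IgA and 8.06% of the other plasma cells in C-ON and in 17.5% and 11.0% in FMC_new, where no marker was at 0 in any group and the summed markers of a cell had a median of 0 and a highest value between 19 and 44 UMIs. The T cell gene *Themis*, named after its values were seen, was higher in IgA cells at 1.70 ± 0.26. The part of T cell RNA in these values was not tested.

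Of 13 genes of class switching and mutation, 10 were tested and 1 was lower, *Smad3*, a mediator of TGF-β signalling, at −1.38 ± 0.32, with a list median of 0.09. None of the 18 tested of 20 cell cycle genes passed the test by edgeR, with a median log2 fold change of 0.33. At least 8 of these 20 genes were found in 3 of 206 members of C-ON (1.46%, 0.30% to 4.20%) and in 12 of 491 of FMC_new (2.44%, 1.27% to 4.23%), against 4.04% and 4.91% of T cells, whose depth was lower. Of 12 immediate early and stress genes, 10 were tested, *Fos* was higher at 0.40 ± 0.10 and *Jun* lower at −0.63 ± 0.14, with a list median of 0.08. For all lists in this paragraph, the shares over all genes tested were 1.09% higher and 1.2% lower.

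Receptor patterns varied among the members. In C-ON, 68 members had a UMI of *Ccr10* and none of *Cxcr3*, 30 had *Cxcr3* alone, 39 had both and 69 had neither. In FMC_new these counts were 202, 55, 84 and 150. *Cxcr3* was found in 36.4% of members with *Ccr10* and in 30.3% of those without in C-ON, and in 29.4% and 26.8% in FMC_new. The receptors were thus found together in 18.9% and 17.1% of members. Counts per cell were low, with at most 8 and 9 UMIs of *Ccr10*, so absence in a single cell is not absence of expression.

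The V gene pairs allowed a comparison of IgA with IgM and IgG cells that carried the same pair. In FMC_new, 5 pairs had at least 10 cells of each kind with both V genes at 80% or more, with 186 IgA and 212 other plasma cells in all. The 7 genes compared were chosen after the results above were known, and the cells of a pair share 1 library, so these are values with no test. The intervals cover counting error only and leave out the spread among cells. How often they lie apart over all genes was not computed, so the counts of pairs with intervals apart are no added support. *Ccr10* was higher in the IgA cells of all 5 pairs, with 192.7 to 381.2 CPM against 6.89 to 101.3, and the intervals lay apart in 4. In *Ighv1-64* with *Igkv6-17* it had 101 UMIs in 59 IgA cells and 1 UMI in 38 others. In *Ighv8-12* with *Igkv8-21* it stood at 222.2 CPM in 37 IgA cells and at 84.5 in 69 others.

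*Tnfrsf17*, *Btla* and *Txndc5* were also higher in the IgA cells of all 5 pairs, and *Ly6c2* and *Cxcr3* were lower in all 5. The intervals lay apart in 3 pairs for *Tnfrsf17* and in 4 each for *Btla* and *Cxcr3*. *Txndc5* stood between 1759 and 2193 CPM in the IgA cells and between 350.9 and 774.1 in the others, with intervals apart in all 5 pairs. *Ly6c2* stood between 452.9 and 1198 CPM against 1804 to 8478, again with intervals apart in all 5. *H2-Aa* was lower in the IgA cells of 4 pairs, and in *Ighv2-6* with *Igkv1-110* it was higher, at 3621 against 2898 CPM. No pair in C-ON reached 10 cells of each kind.

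**Figure D4:**
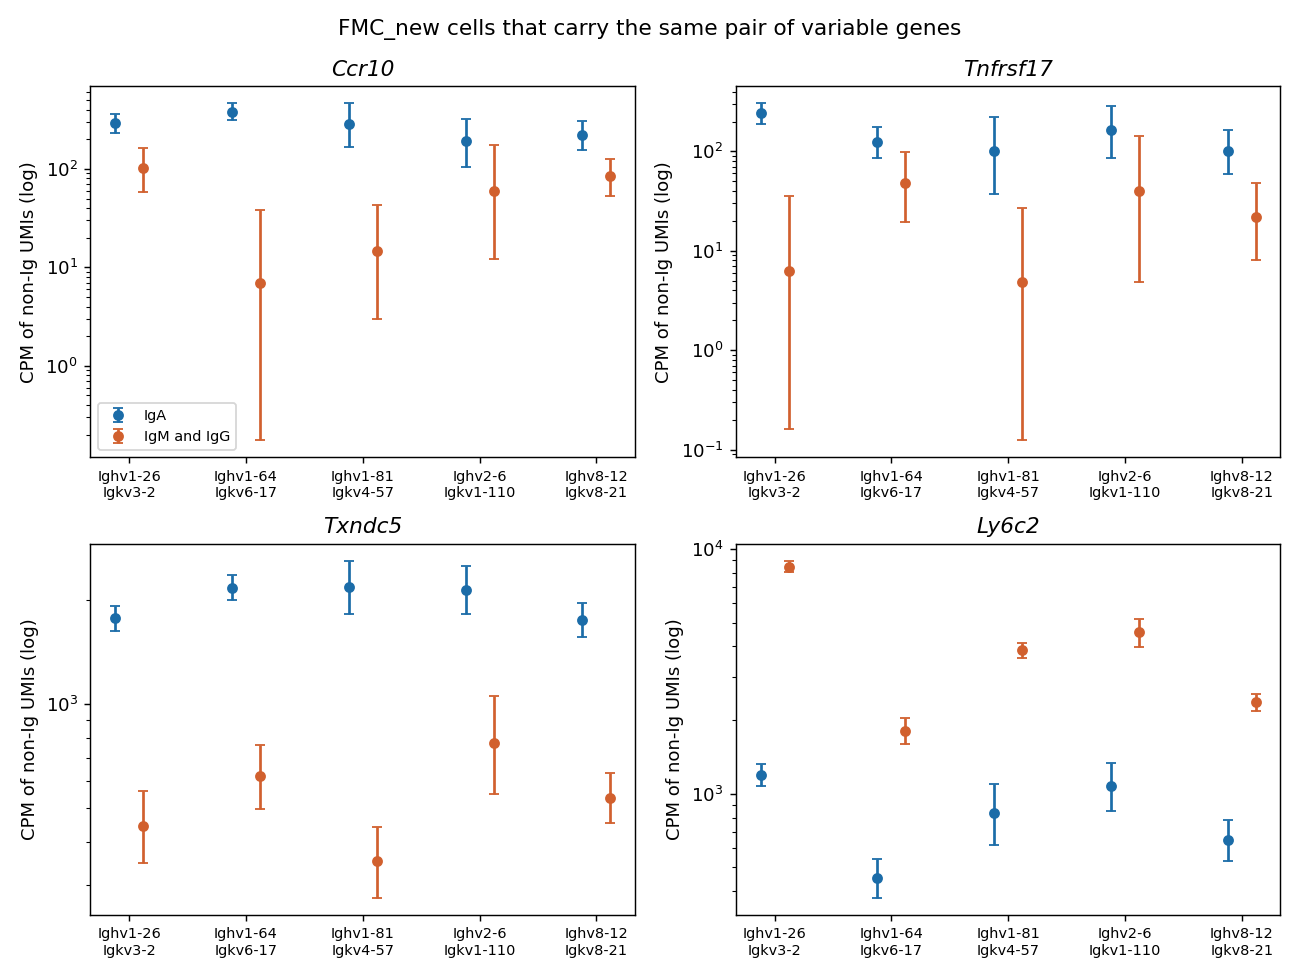
CPM of non-immunoglobulin UMIs (log axis) of *Ccr10*, *Tnfrsf17*, *Txndc5* and *Ly6c2* in FMC_new cells that carry the same heavy and light V gene pair (horizontal axis), for IgA plasma cells (blue) and IgM and IgG plasma cells (orange); bars are exact Poisson 95% intervals. In all 5 pairs the first 3 genes are higher in the IgA cells and *Ly6c2* is lower.

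RNA from other cells was present in the members. At least 2 markers of another cell class were found in 101 of 206 IgA plasma cells of C-ON and 219 of 491 of FMC_new, against 85 of 186 and 272 of 655 other plasma cells. Oligodendrocyte markers led in C-ON, in 37.9% of members, and macrophage markers in FMC_new, in 19.3%. The pituitary hormone genes *Gh* and *Prl* were found in 99.4% and 95.1% of the members of FMC_new and in none of C-ON, and *Gh* was likewise in 99.9% of the T cells of FMC_new. Pituitary endocrine cells, chosen by at least 3 markers, numbered 796 in FMC_new and 20 in C-ON. Oligodendrocytes made up 17.6% of the kept cells of FMC_new and 70.8% of those of C-ON. The libraries thus differ in the cells they hold, and which tissue the members came from was not tested. Among genes used as a check for free RNA, the pituitary gene *Pomc* was lower in IgA than in the other plasma cells at −0.67 ± 0.15, and the neutrophil genes *S100a8* and *S100a9* at −2.49 ± 0.27 and −2.41 ± 0.23, of which *S100a8* and *S100a9* had no UMI in either plasma cell group of C-ON. Single IgM or IgG cells of FMC_new held up to 122 of the 285 *S100a8* UMIs and 239 of the 454 *S100a9* UMIs of that group, and 1 cell held 587 UMIs of the 4 neutrophil markers. With cells that held at least 2 markers of another class left out, the log2 fold changes were −0.63 and −0.073 and neither passed. *S100a8* and *S100a9* are themselves among the 4 neutrophil markers of that limit, so their drop was largely set by it and shows nothing further. *Ccr10*, *Tnfrsf17*, *Btla* and *Txndc5* remained higher and *Ly6c2*, *Cxcr3* and *Scimp* lower, each past the threshold, when cells with at least 2 markers of another class were left out.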

How the data were processed

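Single-cell RNA of 2 Nf1-OPG optic nerve libraries was measured with a 10x 5′ kit. The authors aligned reads to mm10 with Cell Ranger 7.2.0, per the labels, and deposited unnormalized UMI counts per gene and barcode. Barcodes with 500 to 5000 genes, 500 to 20000 UMIs and at most 5% mitochondrial UMIs were kept, and no doublets were removed. Total counts were 85101211 in C-ON and 129113325 in FMC_new, with medians of 6810.5 and 4676 UMIs per kept cell. Of 32285 genes, 393 immunoglobulin genes (with *Jchain*) were left out before library sizes. UMIs were summed per library and plasma cell group and tested with edgeR 4.0.16 (quasi-likelihood, TMM, filterByExpr, library as a block, Benjamini-Hochberg threshold 0.05) under R 4.3.3, and with DESeq2 1.42.0 as an alternative. A sum needed at least 20 cells. Log2 fold changes are from this fit, ± SE, and CPM values are unscaled sums. Other values were computed with Python 3.11.15 and SciPy 1.17.1 with 95% Clopper-Pearson or Poisson intervals, which cover counting error only. The testing step was checked on simulated counts. Named genes are those of the lists, the 10 largest increases and decreases past the threshold with the same sign in both libraries and at least 20 UMIs, and the 5 leading V genes per chain. Members and lists were chosen with earlier results of these data known. *Ero1b* of the lists was not matched by symbol. Gene positions and V gene transcripts are from GENCODE M21 (GRCm38), matched by gene name. The cells of a library share its pool of mice, and no comparison of conditions was made. A few genes of the lists are not reported here.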

Additional observations from a re-analysis of the deposited data

How the results depend on the processing

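The count of 235 genes called between the plasma cell groups fell to 78 with immunoglobulin genes kept (53 of them among the 235), to 48 with DESeq2, and to 0 with no replicate block or with no upper limit on UMIs or genes, and rose to 366 with no filter on low counts. Leaving out cells with at least 2 markers and 10 UMIs of another class (474 called) or with under 30% immunoglobulin UMIs (396 called) were alternatives chosen after seeing the data. All 48 genes called by DESeq2 were among the 235. Leaving out cells with at least 2 markers of another class called 318, of which 163 were shared, while 9 of the 235 took the opposite sign and 32 were not tested. The sign reversed for *Ccl5* (−0.083) there, for *Pomc* with no upper limit (1.51) and in C-ON alone (0.69, on 3 UMIs, against −0.69 in FMC_new alone), and for *S100a9* with the marker and 10 UMI limit (0.033). *S100a9* is itself a marker of that limit. The share of IgA plasma cells moved from 2.72% to 3.43% with no upper limit, to 2.10% with higher *Jchain* and *Igha* limits, and to 1.47% or 2.15% with cells holding markers of another class, or markers and 10 UMIs, left out. Without replicate 1 or 2 it was 2.92% and 2.33%, the *Igha* share was 1.94% and 2.51%, the kappa share 94.9% and 99.0%, and of 12 B cell identity genes 12 and 9 were lower than in B cells. With all UMIs as the total, the median over 191 list genes moved from 116.6 to 48.0 CPM. Alternative scalings of the B cell comparison were not run, as it had no fit. The cause of these changes was not tested.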

Other observations

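Genes that encode ligands for the receptors of IgA plasma cells were looked up across the cell classes of the same libraries, each class chosen by at least 3 of its markers, as values with no test. Endothelial and mast cells were not among the classes with values. Among those given, *Cxcl12*, the ligand of CXCR4, was highest in fibroblasts, at 332.0 CPM in 36 cells of C-ON and 279.7 in 79 cells of FMC_new. It stood at 1.65 and 2.48 CPM in macrophages or monocytes. *Tnfsf13*, which encodes APRIL, a ligand of BCMA, was also highest among these classes in fibroblasts, at 35.9 CPM (15.5 to 70.7) and 81.8 (59.2 to 110.2). In macrophages or monocytes it stood at 21.1 CPM (16.3 to 27.0) and 20.7 (18.5 to 23.2). The fibroblast value of C-ON rests on 8 UMIs, and its interval overlaps that of macrophages or monocytes. *Tnfsf13b*, which encodes BAFF, stood at 42.2 and 55.1 CPM in macrophages or monocytes and at 59.3 CPM in 83 neutrophils of FMC_new. *Ccl28*, a ligand of CCR10, had no UMI in fibroblasts or dendritic cells of either library and was near 0 elsewhere, with 8 UMIs over all 8834 kept cells of C-ON and 29 over the 16818 of FMC_new. *Pigr*, the epithelial receptor that exports dimeric IgA, had no UMI in IgA plasma cells.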
